A study of Mus musculus with 5 samples.

Results

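The 8 genes described here make small non-coding RNAs that RNA polymerase III (Pol III) transcribes and that are not transfer RNAs: Rn7sk, Rmrp, Rpph1, Rny1, Rny3, Rn7s1, Rn7s2 and Vaultrc5. They were taken by name from the 49943 genes that the gene table places on the named chromosomes, and each was searched for peak summits of Hand1 and Foxf1 within 1 kb. Within that distance 7 of the 8 genes had a Hand1 summit and 4 a Foxf1 summit. Among all 49943 genes, 1.85% had such a Hand1 summit and 8.36% a Foxf1 summit. The genes were selected on the summits and folds of these same lists, so the counts, positions and enrichments are given as descriptions, with no test.

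The data came from chromatin immunoprecipitation and sequencing (ChIP-seq) of E14 mouse embryonic stem cells undergoing directed cardiac differentiation. Hand1 and Foxf1, 2 transcription factors, each carried an HA tag that a homemade antibody to HA recognises. Hand1-HA was expressed from a knock-in line and measured at the stage labelled MES, after 48 h as embryoid bodies and 40 h of re-aggregation with VEGF, Activin A and BMP4. Foxf1-HA came from an inducible overexpression line and was measured at the stage labelled CP, after a further 32 h as a monolayer with VEGF, basic FGF and FGF10. There was 1 Hand1-HA library, 2 Foxf1-HA libraries and 1 input library of each stage, and the peak lists of 2 samples were used, 1 per factor (replicate 1 for Foxf1). The lists differ at once in factor, in stage and in knock-in against overexpression, and these cannot be told apart. Libraries of the histone mark H3K27ac named in the series text were not analysed here, and whether clones or pools of cells were used is not given in the sources used here.

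Pol III reads promoters of 2 kinds at these genes. Rn7sk, Rmrp, Rpph1, Rny1 and Rny3 have upstream promoters, in which the elements that recruit the polymerase lie before the gene, among them a TATA box and a proximal element bound by the SNAPc complex, often helped by a distal octamer bound by Oct1. Rn7s1, Rn7s2 and Vaultrc5 have internal promoters, in which the A box and B box bound by TFIIIC lie inside the transcribed part, as they do in tRNA genes. The RNAs act in RNA-protein particles: 7SK (Rn7sk) holds the elongation kinase Cdk9 in an inactive form, Rmrp and Rpph1 are the RNAs of RNase MRP and RNase P, Y RNAs (Rny1, Rny3) bind the Ro60 protein, 7SL (Rn7s1, Rn7s2) is the scaffold of the signal recognition particle, and the vault RNA (Vaultrc5) is part of the vault particle.

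The promoter table of RefSeq (GRCm38.p6) matched 0 of the 8 genes, but 2 of its windows cover DNA next to Rmrp and Rpph1 because a protein-coding gene starts there. They are shown, on the forward strand, because these are the 2 RNase RNA genes that differed in the Hand1 list. The Rmrp window, chr4:43493115-43493339, lies wholly outside Rmrp and ends at the base before Ccdc107. The Rpph1 window, chr14:50807666-50807896, holds 106 bp of Rpph1 and ends at the base before Parp2, which starts 126 bp from Rpph1. Capitals mark matches to the letters searched on both strands (the TATA box TATAAA or its variant TATATA, the octamer ATTTGCAT, the B box GGTTCGA followed by any 2 bases and CC, the Hand1-type E box CATCTG, the forkhead letters TGTTTAC or with a changed base TGTTTGC, the CRE TGACGTCA and its shorter form TGACGT, and the CCAAT box), and the general E box CANNTG was searched without being marked.
Rmrp side: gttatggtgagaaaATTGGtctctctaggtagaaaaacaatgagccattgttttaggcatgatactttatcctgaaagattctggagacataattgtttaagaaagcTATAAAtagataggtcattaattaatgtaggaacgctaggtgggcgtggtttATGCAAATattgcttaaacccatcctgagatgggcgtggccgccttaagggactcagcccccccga
Rpph1 side: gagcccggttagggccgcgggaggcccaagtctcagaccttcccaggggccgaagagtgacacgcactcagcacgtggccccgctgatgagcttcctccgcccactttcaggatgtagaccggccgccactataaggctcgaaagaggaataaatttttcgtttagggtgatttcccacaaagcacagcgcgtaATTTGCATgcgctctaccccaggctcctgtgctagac
Both windows hold the octamer, which 1.74% of the 32851 windows in the table contain. It lay 215 bp from Rmrp (read on the reverse strand) and 89 bp from Rpph1. The Rmrp window also had TATAAA, found in 13.6% of all windows, 163 bp from the gene, and CCAAT on the reverse strand, found in 37.4%. The DNA between Rmrp, which ends at 43493059, and the start of the window is not shown. This TATAAA is a match to letters and was not identified as the TATA box of the Rmrp promoter. No forkhead or Hand1-type E box letters were in either window, and the Rpph1 window held 1 general E box, CACGTG, inside Rpph1. All these shares refer to the whole 300 bp windows of the table, which are longer than the stretches shown. Of the Rmrp window 34 bp lay inside the Hand1 peak at Rmrp, with the octamer 126 bp beyond the end of that peak.

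**Figure D1:**
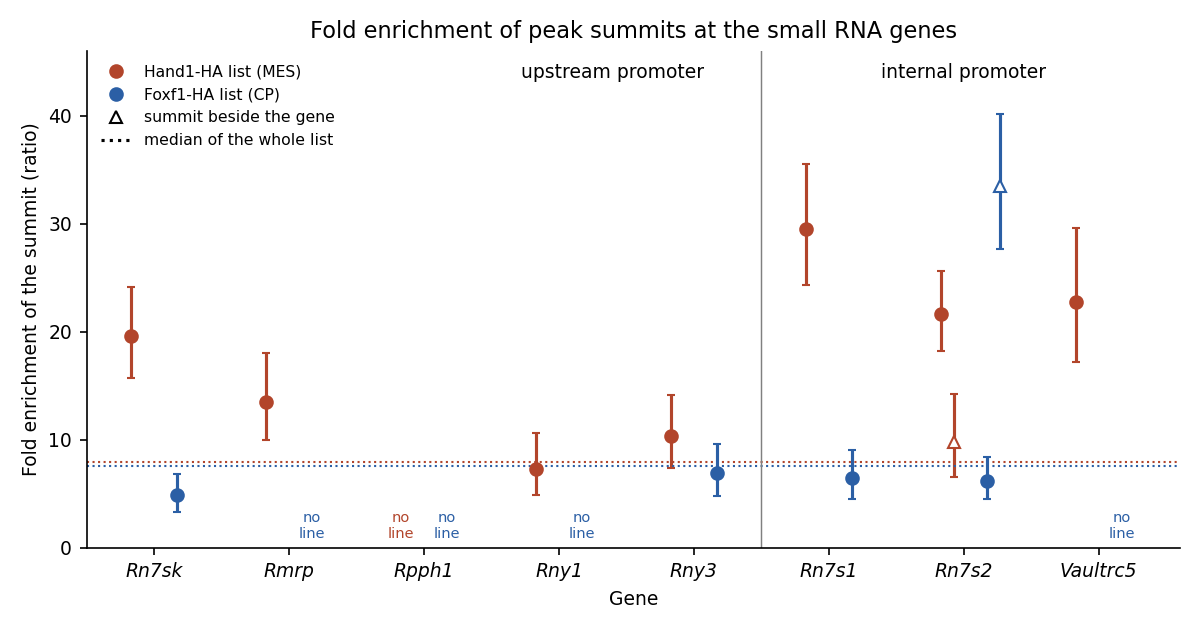
The authors' fold enrichment of each peak summit (vertical axis, linear ratio) at the 8 genes in the Hand1-HA list (red) and the Foxf1-HA list (blue). Filled circles are summits inside the gene, open triangles summits beside it, bars are 95% counting intervals and dotted lines the median of each whole list; Hand1 values inside the genes run from 7.33 at Rny1 to 29.5 at Rn7s1, and the 4 Foxf1 values inside genes lie between 4.85 and 6.88.

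Each peak line carries the authors' fold enrichment, the ratio of the signal at the summit to the local background of the peak caller. With 1 list per factor no value has a replicate error. The number of fragments at each summit and the control level there were inferred from the deposited fold and −log10 p-value, and the 95% interval printed beside a fold is the exact Poisson interval of those fragments with the control level held fixed. It covers counting error only. The lists were scaled separately and have different limits, a lowest −log10 q-value of 5.01 for Hand1 and 10.0 for Foxf1, so folds set side by side across lists are not a measured difference between factors.

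The genes with upstream promoters are described first, beginning with Rn7sk (chromosome 9, 78175302 to 78175633). In the Hand1 list its summit at 78175504 had a fold of 19.6 (interval 15.7 to 24.1), from 87 fragments, and a −log10 q-value of 82.5. In the Foxf1 list the summit at 78175494 had a fold of 4.85 (3.34 to 6.82), from 31 fragments, and a −log10 q-value of 10.3. The summits were 10 bp apart, but Rn7sk stood at rank 117 of 1134 lines by fold in the Hand1 list and 5570 of 5703 in the Foxf1 list. The Foxf1 peak was close to the limit of its list, and at 308 bp it ended inside the gene on both sides.

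Rmrp and Rpph1, whose RNAs are related parts of 2 processing enzymes, differed in the Hand1 list. At Rmrp (chromosome 4, 43492785 to 43493059) the Hand1 peak spanned 43492553 to 43493148, with its summit at 43492955, inside the gene. Its fold was 13.5 (9.94 to 18.0), from 45 fragments, and its −log10 q-value 36.5. No Foxf1 line lay within 1 kb of Rmrp, and the nearest was 60.9 kb away. For Rpph1 (chromosome 14, 50807447 to 50807771) neither list had a line: the nearest Hand1 summit was 256 kb and the nearest Foxf1 summit 21.9 kb away. A gene without a line is one for which no peak passed the limits of the lists analysed here, and no signal can be read from the lists at such a gene.

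Rny3 and Rny1 lie 6.35 kb apart on chromosome 6 (47781624 to 47781724 and 47788070 to 47788180). At Rny3 the Hand1 fold was 10.4 (7.37 to 14.2), from 37 fragments, and the Foxf1 fold 6.88 (4.77 to 9.63), from 32 fragments. The 2 summits at Rny3, 47781673 and 47781661, were 12 bp apart. Rny1 had a Hand1 fold of 7.33 (4.88 to 10.6), from 26 fragments at 47788136, and no Foxf1 line within 1 kb. It was the only one of the 7 genes with a Hand1 line whose fold was under the Hand1 list median of 7.92. The interval for Rny1 overlapped that for Rny3, so the counts did not separate the Y RNA genes in the Hand1 list.

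The genes with internal promoters follow, with the 2 genes for 7SL RNA on chromosome 12, which start 202 kb apart (Rn7s1, 69159295 to 69159593; Rn7s2, 69361183 to 69361481). Rn7s1 had the highest Hand1 fold of the 8 genes, 29.5 (24.4 to 35.5), from 112 fragments at 69159418, rank 11 of 1134. Its Foxf1 fold was 6.50 (4.56 to 9.01), from 34 fragments at 69159424, rank 4441 of 5703. The summits were 6 bp apart inside the gene. The Hand1 peak reached 689 bp beyond the lower end of Rn7s1, across the end of the ribosomal protein gene Rps29, which lies 109 bp away.

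Rn7s2 was the only one of the 8 genes with 2 summits in a deposited list, and it had 2 in both. The names of the Rn7s1 lines also end in a letter (b for Hand1, a for Foxf1), as those at Rn7s2 do. A further summit at Rn7s1 may therefore have been left out of the lists. Inside the gene, the Hand1 summit at 69361372 had a fold of 21.7 (18.2 to 25.6), from 134 fragments, and the Foxf1 summit at 69361368 a fold of 6.21 (4.48 to 8.41), from 40 fragments. Beside the gene, beyond its lower end, the Hand1 summit at 69360851 had a fold of 9.84 (6.55 to 14.2), from 26 fragments. The Foxf1 summit there, at 69360864, had a fold of 33.5 (27.6 to 40.2), from 113 fragments, rank 3 of 5703 in its list. The order of the 2 positions was thus opposite in the lists. The summit inside Rn7s2 was 2.2 times the one beside it in the Hand1 list, whereas the summit beside the gene was 5.39 times the one inside in the Foxf1 list, and within each list the 2 counting intervals did not overlap. Positions agreed between lists to 4 bp inside the gene and 13 bp beside it, 332 bp (Hand1) and 319 bp (Foxf1) from the gene. The gene table gives no strand, so the summit beside Rn7s2 is placed only by coordinate.

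Rn7s1 and Rn7s2 are near-identical copies of 299 bp each, and how reads that match both were placed is not given in the sources used here. Enrichment inside these genes is therefore uncertain for either copy alone. Counting the copies as 1 gene left 6 of 7 genes with a Hand1 line and 3 of 7 with a Foxf1 line.

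Vaultrc5 (chromosome 18, 36801763 to 36802107) had a Hand1 fold of 22.8 (17.2 to 29.6), from 54 fragments at 36801931, and a −log10 q-value of 60.3. It had no Foxf1 line within 1 kb, and the nearest was 110 kb away. Its 441 bp peak held the gene with 44 bp and 52 bp to spare, and its summit was 4 bp from the midpoint.

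By promoter type, 4 of 5 genes with upstream and 3 of 3 with internal promoters had a Hand1 summit, against 2 of 5 and 2 of 3 for Foxf1. The median of the highest Hand1 fold at each gene was 11.9 for the 4 upstream genes (range 7.33 to 19.6) and 22.8 for the 3 internal ones (range 21.7 to 29.5). All 3 internal genes ranked above all 4 upstream genes by Hand1 fold, but neighbours in that order had overlapping counting intervals: Rn7sk overlapped Rn7s2 and Vaultrc5, and did not overlap Rn7s1. Among the internal genes, Rn7s1 and Rn7s2 are the near-identical copies whose enrichment is uncertain for either copy alone. Over the 7 genes the median Hand1 fold was 19.6, and 6 of the 7 were above the median of all Hand1 lines. In the Foxf1 list the 4 summits inside genes had folds from 4.85 to 6.88 with either promoter type, each under the list median of 7.62. The line beside Rn7s2 was the only Foxf1 line at the 8 genes above that median. At a lower limit of 20 on the −log10 q-value, or with the Foxf1 list shortened to the length of the Hand1 list, Rn7s2 was the 1 gene left with a Foxf1 line, whereas 6 genes (all but Rny1) kept a Hand1 line at that limit.

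**Figure D2:**
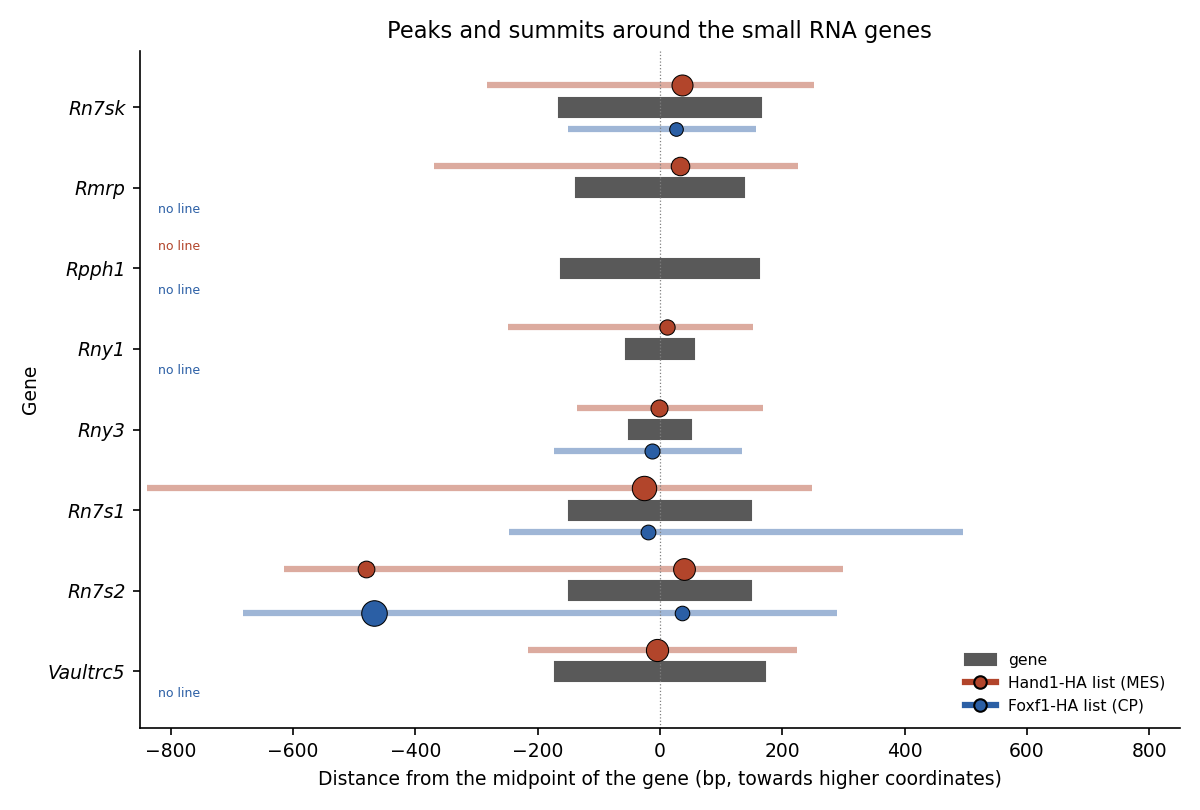
Peaks (bars) and summits (circles, larger with higher fold) of the Hand1-HA (red) and Foxf1-HA (blue) lists around each gene (grey box), by distance in bp from the midpoint of the gene. Summits inside genes lie 1 to 40 bp from the midpoint, and at Rn7s2 a further summit of each list lies beside the gene.

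The 1 kb rule did not set where a summit lay within that distance, but the genes were chosen with these summits known. The distance of an inside summit from the midpoint is also bounded by gene length, most at Rny3 (101 bp) and Rny1 (111 bp). All 7 genes with a Hand1 line and all 4 with a Foxf1 line had a summit inside the gene itself. Hand1 summits inside genes were 1 to 40 bp from the midpoint of the gene, with a median of 26 bp, and Foxf1 summits 13 to 36 bp, with a median of 23.2 bp. This held for both promoter types. The 4 upstream genes had Hand1 summits 1 to 36.5 bp from the midpoint, and the 3 internal ones 4 to 40 bp. At Rn7sk, whose promoter elements lie outside the gene, the Hand1 summit was 129 bp inside the nearer gene end, and at Rmrp 104 bp inside. Sheared chromatin of 200 to 800 bp, per the labels, is similar to or longer than these genes of 101 to 345 bp, so DNA inside a gene and beside it can lie on the same fragment.

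At the 4 genes present in both lists (Rn7sk, Rny3, Rn7s1 and Rn7s2) the 5 pairs of summits were 4 to 13 bp apart. Of all 200 Hand1 peaks overlapping a Foxf1 peak by 1 bp or more, 55 (27.5%) had a Foxf1 summit within 13 bp, and the median gap was 31.5 bp. The 13 bp was taken from the largest gap at these genes, and their lines are among the 200. The share therefore describes the lists and is no test of the genes. Across all 49943 genes, 0.495% had summits of both lists within 1 kb. The nearest line outside the 1 kb limit lay 3.42 kb (Hand1, fold 2.70) and 3.47 kb (Foxf1, fold 2.80) from Rny3, and the lines inside the limit but outside a gene were those beside Rn7s2. The Rny3 neighbours had control levels of 25.3 and 32.6, far above those at Rny3 itself, 2.67 and 3.80. Rny1 had its next lines at Rny3, 6.40 kb and 6.41 kb away. For the other 6 genes no further line lay within 10 kb in either list.

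**Figure D3:**
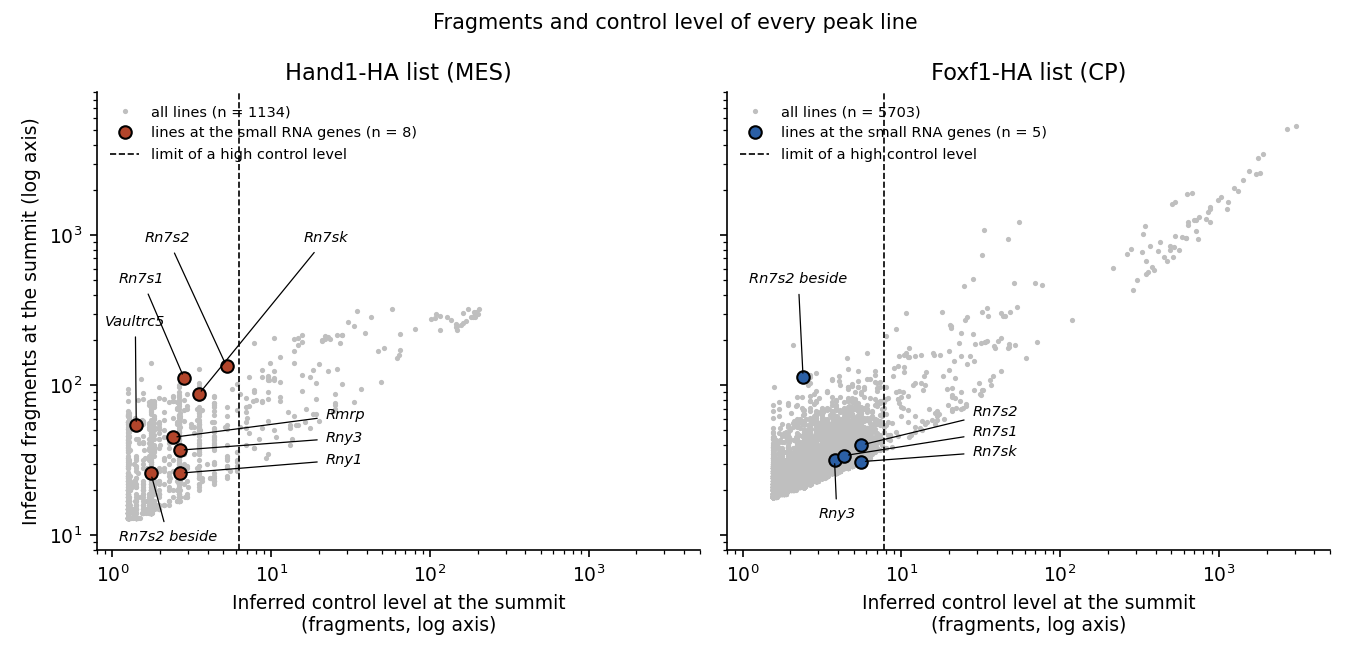
Inferred fragments at the summit against the inferred control level (both in fragments, log axes) for every line (grey) of the Hand1-HA list (left, 1134 lines) and the Foxf1-HA list (right, 5703 lines), with the lines at the 8 genes in colour. All coloured points lie left of the dashed line that marks a high control level, with 26 to 134 fragments in the Hand1 list and 31 to 113 in the Foxf1 list.

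The inferred control level, the local background that the peak caller expected at a summit, was set beside each line. None of the 8 Hand1 and 5 Foxf1 lines at the genes had a high level, meaning at least 5 times the lowest of the list, against 11.7% of all Hand1 and 3.65% of all Foxf1 lines. Levels at the genes ran from 1.41 (Vaultrc5) to 5.23 (Rn7s2) among the Hand1 lines (limit 6.26, median of all lines 1.74). Among the Foxf1 lines they ran from 2.41 (beside Rn7s2) to 5.60 (Rn7sk and inside Rn7s2), with a limit of 7.83 and a median of 2.92. Inside the genes the control level was above the median of the list at 6 of 7 genes for Hand1 (all but Vaultrc5) and at 4 of 4 for Foxf1, and its part in the result was not tested. Median depth over all lines was 26 fragments per summit for Hand1 and 29 for Foxf1, and leaving out lines of high control level removed none of the 8 genes.

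**Figure D4:**
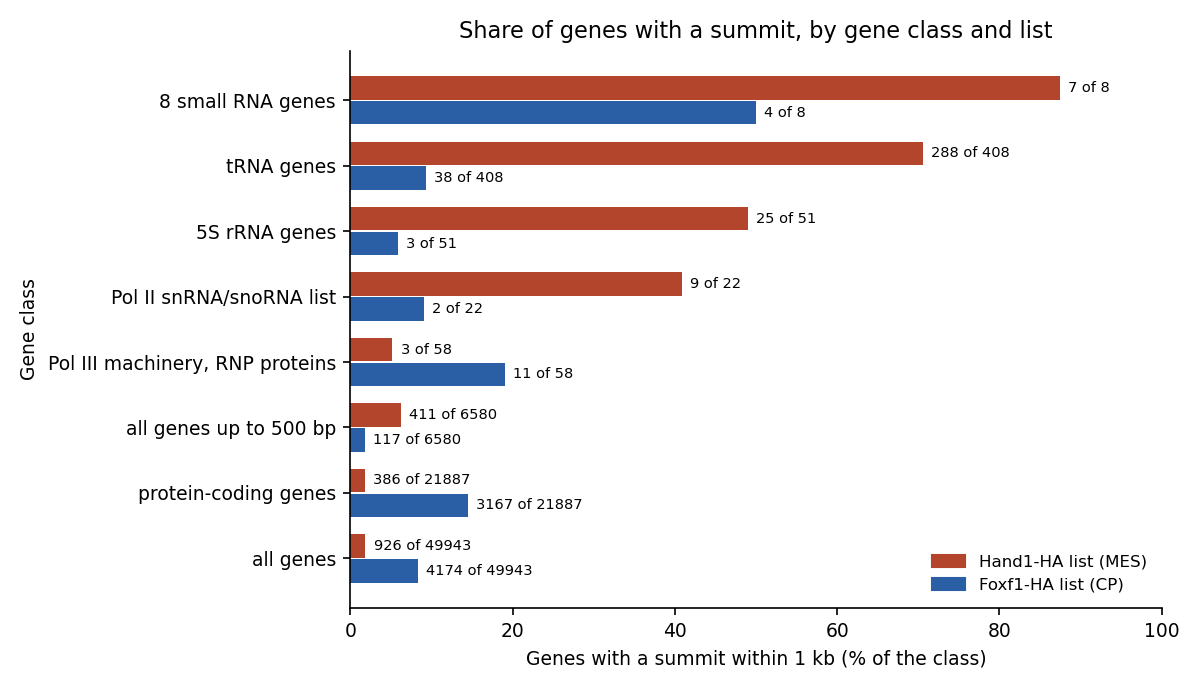
Share of genes (horizontal axis, % of the class) with a Hand1-HA (red) or Foxf1-HA (blue) summit within 1 kb, by gene class, with the counts beside each bar. The 4 classes of small RNA genes drawn at the top have longer red than blue bars, from 7 of 8 against 4 of 8 in the genes described here to 9 of 22 against 2 of 22 in the Pol II snRNA list, whereas protein-coding genes have 386 against 3167 of 21887.

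Other small RNA genes place these counts. Within 1 kb, 411 of 6580 genes of at most 500 bp (6.25%) had a Hand1 summit and 117 (1.78%) a Foxf1 summit, and 0.988% had both. Leaving out the tRNA genes, 123 of 6172 such short genes (1.99%) had a Hand1 and 79 (1.28%) a Foxf1 summit. That Hand1 share is close to the 1.85% of all genes. Not all small RNA classes had more Hand1 than Foxf1 summits: of 1228 miRNA genes 6 had a Hand1 and 29 a Foxf1 summit, and of 1340 snoRNA genes 7 and 8. Of the 408 tRNA genes, 288 (70.6%) had a Hand1 and 38 (9.31%) a Foxf1 summit, and tRNA genes that lie close together can share a line. The median of the highest Hand1 fold was 17.9 at those tRNA genes, close to the 19.6 at the 8 genes described here. The strongest Hand1 summit lay inside the tRNA gene at 204 of the 288, with a median of 8.5 bp from its midpoint. The strongest Foxf1 summit lay inside at 3 of the 38. The Foxf1 share of 9.31% was above the 1.28% of the short genes that are not tRNA genes. It was near the 8.36% of all genes, but these include longer genes, which have more DNA inside the limit.

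Genes for 5S ribosomal RNA, which Pol III transcribes from internal promoters that need TFIIIA, also had Hand1 lines. Of the 51 such genes, 25 (49.0%) had a Hand1 summit, all on chromosome 8 between 123538793 and 123622000, and 3 (5.88%) had a Foxf1 summit. The 12 highest Hand1 folds, from 9.03 to 14.0, were at n-R5s110, n-R5s103, n-R5s107, n-R5s128, n-R5s133, n-R5s149, n-R5s105, n-R5s121, n-R5s117, n-R5s146, n-R5s122 and n-R5s144. The Foxf1 folds were 3.82 at n-R5s121, 3.75 at n-R5s128 and 3.11 at n-R5s117. This array differed from the 8 genes in its control level: 22 of the 25 Hand1 lines and 3 of the 3 Foxf1 lines had a high one, and its part in the result was not tested. None of 18 genes annotated as 5S pseudogenes, and none of 7 other Pol III RNA genes (Rnu6 and 2 of its pseudogenes, the RNase P-like Rprl1, Rprl2 and Rprl3, and Bc1), had a line in either list. These 7 were taken by symbol, so any genes of the same families under other symbols are not covered.

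The snRNA and snoRNA genes that RNA polymerase II reads from promoters with a related proximal element formed the next group. Of the 22 listed, 6 of them pseudogenes, 9 (40.9%) had a Hand1 summit within 1 kb and 2 (9.09%) a Foxf1 summit. The Hand1 folds were 12.5 at Rnu1b6 (U1), 8.43 at Rnu3a, 7.65 at Rnu3b4, 7.56 at Snord118 (U8), 7.05 at Rnu2-10 (U2), 6.77 at Rnu12, 6.56 at Rnu3b3, 5.83 at Rnu11 and 5.25 at Rnu5g. The Foxf1 folds were 6.66 at Snord118 and 6.11 at Rnu1b6. Both Rnu1b6 values belong to distant summits, 843 bp (Hand1) and 828 bp (Foxf1) from the gene. The tRNA gene n-TNgtt13 had these same folds, 12.5 and 6.11, from summits inside it, so they are not particular to Rnu1b6. Within 500 bp of Rnu1b6 the Hand1 fold was 6.82 and there was no Foxf1 line. The median of 7.05 in the Hand1 list was under that of all Hand1 lines, unlike the 19.6 at the 8 genes. At a −log10 q-value of at least 10, 5 of these 9 genes kept a Hand1 line, and all 7 of the Pol III genes did.

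**Figure D5:**
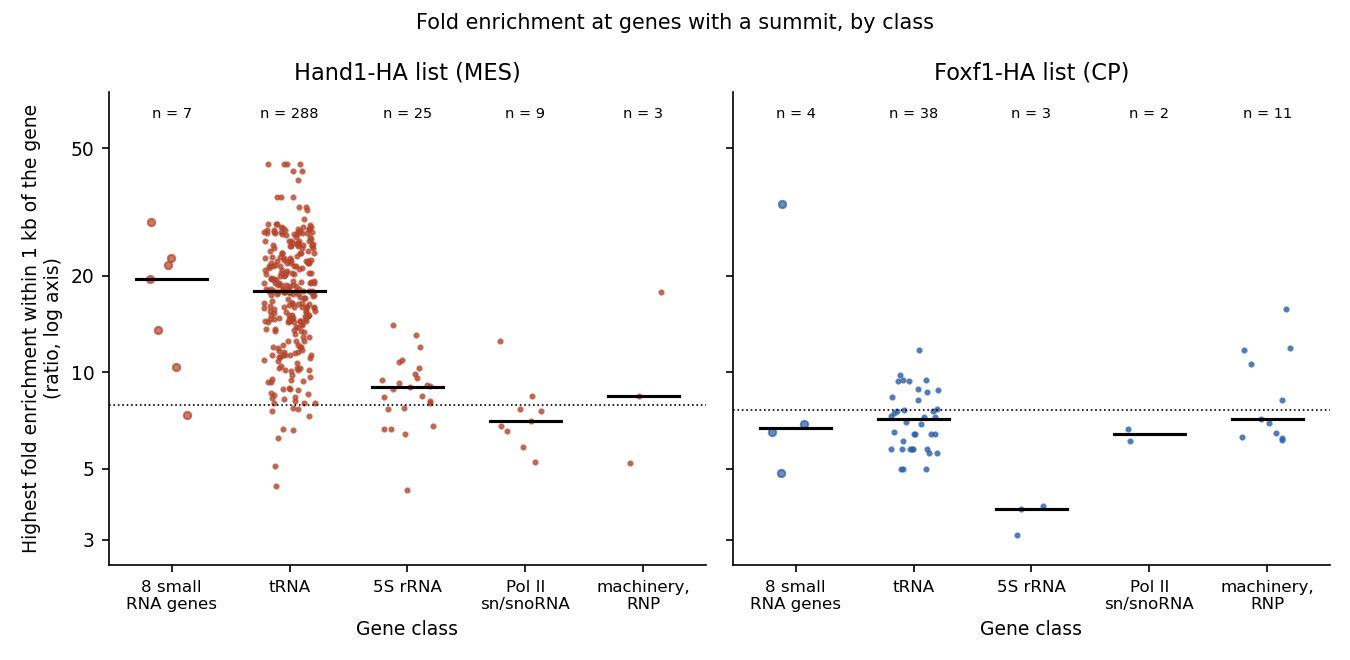
Highest fold enrichment within 1 kb of each gene that has a summit (ratio, log axis), by gene class, in the Hand1-HA list (left) and the Foxf1-HA list (right), with medians as bars and the median of all lines dotted. In the Hand1 list the 8 small RNA genes (median 19.6) and tRNA genes (17.9) lie above 5S rRNA (9.02) and Pol II snRNA and snoRNA genes (7.05); in the Foxf1 list the line beside Rn7s2 stands at 33.5.

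The protein-coding genes of the same system were counted in a list of 58: subunits of Pol III, its initiation factors, and proteins of the particles formed by these RNAs. Hand1 had summits within 1 kb of 3 of them (5.17%, against 1.76% of all 21887 protein-coding genes) and Foxf1 within 1 kb of 11 (19.0%, against 14.5%). The Hand1 genes were Polr3e (fold 17.9), Gtf3c6, a TFIIIC subunit (8.43), and Zfp143, an activator of snRNA promoters (5.21). The Foxf1 genes included Cdk9, the kinase held by 7SK (15.7), Polr3gl (11.9), Polr3e (11.8), and Pou2f1, which encodes Oct1 (10.6). Further down were Polr3k (8.18), Brf1, a subunit of TFIIIB (7.16), Rpp14 (6.95) and Pop7 (6.47), both proteins of RNase P and MRP, Polr3b (6.27), Polr3a (6.24) and Ro60, the Y RNA partner (6.13). The Cdk9 value was 873 bp from the gene, and within 500 bp its fold was 5.11. Within 500 bp the Hand1 count fell from 3 genes to 1, Polr3e.

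At 2 of the 3 genes with a Hand1 summit, the strongest line was also that of a small RNA gene. The line near Gtf3c6, 948 bp from it, was the line inside Rnu3a, and the stronger of the 2 lines at Polr3e was also that of the tRNA gene n-TLaag4. Polr3e is the only gene of the list with summits of both factors, and the DNA before its start is shown because the Hand1 summit and a tRNA gene coincide in it (chr7:120917528-120917777, GRCm38.p6, forward strand, B box in capitals).
Polr3e side: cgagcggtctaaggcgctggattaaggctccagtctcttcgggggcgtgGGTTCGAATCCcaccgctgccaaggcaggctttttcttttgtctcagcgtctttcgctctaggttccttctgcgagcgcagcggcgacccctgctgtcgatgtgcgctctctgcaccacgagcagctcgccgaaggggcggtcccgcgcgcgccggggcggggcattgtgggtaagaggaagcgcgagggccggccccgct
Its first 71 bp are the larger part of n-TLaag4 (120917517 to 120917598). The B box letters (GGTTCGA, any 2 bases, CC) are in 0.122% of the 32851 windows of the table. The Hand1 summit at 120917568 lay 9 bp from them, inside the tRNA gene, and the Foxf1 summit at 120917676 lay 89 bp from them, between the tRNA gene and Polr3e. Polr3e had a second Hand1 line within 1 kb, nearer to the gene, with a fold of 6.56.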

How the data were processed

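ChIP-seq reads of the precipitated libraries were processed on mm10 (GRCm38) with Trim Galore 0.6.6, Bowtie2 2.3.4.3, SAMtools 1.9, deepTools 3.5.0 and MACS2 2.2.7.1, per the submitters' processing notes, which give no roles or options here. The control library, and whether the Foxf1 list pools libraries, are not given in the sources used here. The deposited lists hold, per summit, the authors' fold enrichment (a ratio), −log10 p-value and −log10 q-value. The authors' score column repeats the −log10 p-value, multiplied by 10 and cut to whole numbers, on all Hand1 lines and all but 1 Foxf1 line. A region with several summits has several lines, each treated as 1 peak. Peak numbers run to 291684 (Hand1) and 156892 (Foxf1), so the lists hold a part of the numbered peaks (1134 and 5703 lines).

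Fragments k and control level λ were solved from fold = (k + 1)/(λ + 1) and p = P(X > k) for a Poisson variable with mean λ, taking the higher λ. Within 0.05, k was whole for 100% of lines in both lists, and 300 of 300 simulated summits were recovered. Sequencing depth is not given in the lists. Distances run from summit to the nearer gene end (0 inside). Of the table's 49997 genes, 49943 lie on named chromosomes. All 58 machinery symbols matched, Trove2 as Ro60. All 8 members are named, with every gene of the fixed lists that had a summit, up to 12 per list. Members and lists were chosen with earlier results of these data known. Calculations used Python 3.11.15, pandas 2.3.3 and scipy 1.17.1. Alternatives varied the distance, the threshold, list length, control level and handling of copies.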

Additional observations from a re-analysis of the deposited data

How the results depend on the processing

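Of 130 alternatives over 13 counts and medians, 104 stayed within 1.5 times the value given or within its counting interval. Some could not change a value: equal lists keep the whole Hand1 list, and a −log10 q-value of at least 10 removes no Foxf1 line (lowest 10.0). Medians of −log10 q-values were counted as moved without a comparison. The 104 is thus a tally and not a measure of robustness. The numbers of the 8 genes with a Hand1 line did not move beyond that in any of them. At a −log10 q-value of at least 20, or with the lists made equally long, 1 gene (Rn7s2) kept a Foxf1 line, 0 with upstream and 1 with internal promoters, 1 gene had both lists and the median Foxf1 fold was 33.5. Counting the 7SL copies once left 1 internal gene with a Foxf1 line. Medians of −log10 q-values, another scale than folds, were 60.3 (Hand1) and 15.6 (Foxf1). At −log10 q of at least 20 Hand1 lines remained at 1 protein-coding gene of the system and 1 Pol II gene, Rnu1b6, by its line 843 bp away. Foxf1 lines remained at 4 and 0 such genes, the same as with equal lists for Foxf1. At −log10 q of at least 10, 5 Pol II genes had a Hand1 line. With 250 bp or 500 bp, or with an interval touching the gene, 1 protein-coding gene had a Hand1 and 1 Pol II gene a Foxf1 line. The Foxf1 fold at Rn7s2 was 6.21 with the summit nearest to the gene or within 250 bp. For these shifts the cause was not tested, except that a stricter limit or shorter list leaves fewer lines. No paired analysis was possible because each factor has a single list, which also leaves no replicate to omit. Summits of few fragments limit the weakest lines most: Rny1 rests on 26.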

Other observations

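Among other small RNA genes, Rn4.5s, the rodent 4.5S RNA gene on chromosome 6 (47654921 to 47655094), had lines in both lists, and was chosen after its values were seen. The Hand1 summit, inside the gene, had a fold of 8.39 (95% counting interval 7.29 to 9.62) from 205 fragments. The strongest Foxf1 summit, 198 bp outside it, had a fold of 5.64 (4.88 to 6.48) from 194 fragments. The control level was high in both, 23.6 and 33.6.

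Of 988 snRNA genes in none of the lists above, 23 (2.33%) had a Hand1 and 9 (0.911%) a Foxf1 summit within 1 kb. Both shares were near those of genes of at most 500 bp that are not tRNA genes, 1.99% and 1.28%. Among all genes, which include longer ones, they were 1.85% and 8.36%. The highest Hand1 fold among them, 21.5, was inside LOC115488100 on chromosome 12, with the summit 1 bp from its midpoint and a control level of 1.41. Gm25541 on chromosome 2 had a Hand1 fold of 15.8, 2.5 bp from its midpoint. Neither gene had a Foxf1 line within 1 kb. In the Foxf1 list no summit of the 9 lay inside the snRNA gene, whereas in the Hand1 list 11 of the 23 genes held their strongest summit. These genes were also singled out after their values were seen.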
